A study of Saccharomyces cerevisiae with 6 samples.

Results

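Ribonucleotide reductase makes the deoxynucleotides for DNA synthesis, and replication protein A (RPA) and the sliding clamp PCNA work at the replication fork. Their transcripts were measured in budding yeast with and without CBC2, the gene of the smaller protein of the nuclear cap-binding complex. The set was chosen by gene symbol in the platform annotation and holds 10 genes, RNR1, RNR2, RNR3, RNR4, SML1, HUG1, RFA1, RFA2, RFA3 and POL30, of 5656 genes with a probe set of their own. All 10 were found, each with 1 probe set, and all 10 passed the filter on dim probe sets. The wild type (Y255) and the isogenic cbc2∆ strain (Y2685) were each measured on 3 Affymetrix Yeast Genome S98 arrays, from cells grown in synthetic complete (SC) medium at 30 °C to an OD600 of 1. The labels name 1 strain per genotype and give no marker genes or mating type. Whether the arrays of a strain were separate cultures is not stated, so p-values here cover only the spread between these samples, which may be technical.

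In yeast the reductase joins a large subunit, encoded by RNR1, to a small subunit that is a pair of the RNR2 and RNR4 products. RNR3 encodes a second form of the large subunit that is scarce until DNA is damaged, and the Sml1 and Hug1 proteins inhibit the enzyme. RNR2, RNR3, RNR4 and HUG1 are known targets of the repressor Rfx1 (Crt1), which acts with Tup1 and Cyc8 and is relieved by the Mec1, Rad53 and Dun1 kinases. RNR1, the RPA genes and POL30 are known as genes of the G1/S wave, which the factor MBF drives. No synchronisation of the cultures is stated. A larger share of cells in a phase and more RNA per cell in that phase cannot be told apart in these data.

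The deletion was checked first. The normalised intensity of CBC2 was 828 ± 60.6 (SD, n = 3) in the wild type. All 3 deletion arrays were at the floor of 8.25, at least 100.2-fold lower. The trimmed means of the deposited intensities ranged from 251.7 to 473.9 between arrays, and the arrays were quantile normalised for this reason. One fluidics station washed wild-type replicates 1 and 2, and another washed the remaining 4 arrays. Deletion replicate 2 was scanned on a day of its own. The ratio of 3′ to 5′ signal for the TATA-binding protein gene is a measure of RNA integrity. It was 2.48, 3.74 and 3.39 on wild-type replicates 1 to 3 and 3.85, 3.67 and 5.13 on deletion replicates 1 to 3. Deletion replicates 1 and 3 lay above every wild-type array, and the strains overlapped only by deletion replicate 2. For ACT1 the ratio was 1.15 to 1.47 in the wild type and 1.02 to 1.42 in the deletion. The part of RNA integrity in the results was not tested. Of 5247 genes tested with limma at an adjusted p under 0.05, 32.6% were called, 16.3% as higher and 16.3% as lower in the deletion.

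In the cbc2 deletion, transcripts of the main reductase subunits and of 2 of the 3 RPA subunits rose. Of the 10 genes, 5 rose, 5 were not called and none fell, beside 16.3% of all tested genes called higher. RFA1 rose 3.13-fold, RNR2 2.03-fold, RFA3 1.89-fold, RNR4 1.70-fold and RNR1 1.47-fold. The damage-induced RNR3 and HUG1, the inhibitor gene SML1, the middle RPA subunit gene RFA2 and the clamp gene POL30 did not pass the test. The median log2 fold change of the 10 genes was 0.54, and that of all tested genes was 0.00. For 7 of the 10 genes the strains had no overlapping values, beside 49.8% of all tested genes. Of these, 5 were higher in the deletion, beside 24% of all tested genes, and 2 were lower, beside 25.7%. The plot of intensities by array shows every value behind these calls.

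**Figure D1:**
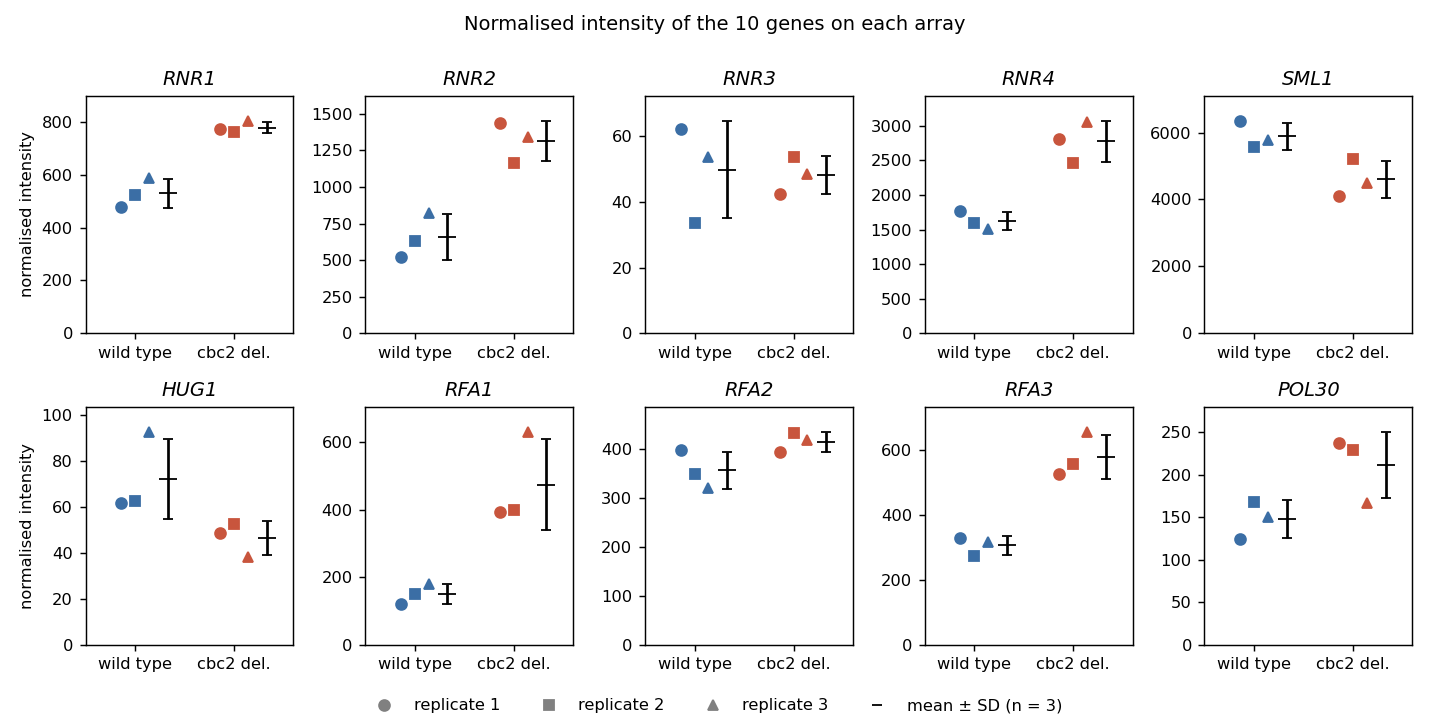
Normalised intensity (linear axis from 0) of each of the 10 genes on the 3 wild-type and the 3 deletion arrays, with the mean ± SD of each strain beside the points. RNR1, RNR2, RNR4, RFA1 and RFA3 lie higher on all 3 deletion arrays than on any wild-type array, SML1 (whose mean change turned when scaled to one median) and HUG1 lie lower, and RNR3, RFA2 and POL30 overlap.

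Of the reductase subunits, RNR1 (YER070W, chromosome V), the large subunit with the catalytic and regulatory sites, had normalised intensities of 478, 525 and 588 on wild-type replicates 1 to 3 and 773, 761 and 804 on deletion replicates 1 to 3. Every deletion array was above every wild-type array. The mean of 530 ± 55.0 in the wild type became 779 ± 22.1 in the deletion (n = 3 each), a log2 fold change of 0.56 (SE 0.15, limma adjusted p = 0.0196). RNR1 had the smallest change among the 5 genes that rose, and its call was lost without wild-type replicate 1 (0.49, limma adjusted p = 0.0771), without wild-type replicate 2 (0.56, limma adjusted p = 0.0523) and without deletion replicate 1 (0.57, limma adjusted p = 0.054).

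RNR2 (YJL026W, chromosome X) encodes the small subunit that carries the radical-forming iron centre. Its intensities were 518, 629 and 825 in the wild type and 1436, 1165 and 1338 in the deletion. The highest wild-type array, replicate 3, was below every deletion array. The log2 fold change was 1.02 (SE 0.19, limma adjusted p = 0.00379), from 657 ± 156 to 1313 ± 137 (n = 3 each).

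RNR4 (YGR180C, chromosome VII) encodes the partner that keeps Rnr2 active and has no iron centre of its own. Its intensities were 1773, 1593 and 1513 in the wild type and 2804, 2468 and 3053 in the deletion, again without overlap. The log2 fold change was 0.77 (SE 0.14, limma adjusted p = 0.00344), between means of 1626 ± 134 and 2775 ± 294 (n = 3 each).

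RNR3 (YIL066C, chromosome IX), the damage-induced large subunit, was read from a probe set whose suffix marks probes shared with other transcripts, so its value may include some of them. Its intensities were 62.3, 33.5 and 53.7 in the wild type and 42.3, 53.7 and 48.6 in the deletion. The 3 deletion values lay inside the range of the wild type. The log2 fold change was -0.01 with a 95% interval from -0.60 to 0.59 (limma adjusted p = 0.99).

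After quantile normalisation, both inhibitor genes were dimmer on every deletion array, and neither passed the test. On the deposited scale the SML1 values of the strains overlapped. SML1 (YML058W, chromosome XIII) encodes the protein that binds and inhibits Rnr1 and is destroyed in S phase and after damage. Its intensities were 6342, 5558 and 5772 in the wild type and 4115, 5199 and 4476 in the deletion. Its log2 fold change was -0.36 (95% interval -0.65 to -0.08, limma adjusted p = 0.0559), and the direction turned when the arrays were scaled to one median (0.07, limma adjusted p = 0.776). Without deletion replicate 2 it was called (-0.45, limma adjusted p = 0.0388).

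HUG1 (YML058W-A, chromosome XIII), a small protein gene that lies next to SML1 on the same strand, had intensities of 61.4, 62.2 and 92.3 in the wild type and 48.3, 52.6 and 38 in the deletion. The strains did not overlap, and wild-type replicate 3 stood above the other two. The log2 fold change was -0.62 (95% interval -1.16 to -0.09, limma adjusted p = 0.0724), from 72.0 ± 17.6 to 46.3 ± 7.51 (n = 3 each). It was not called in any of 17 other settings, with log2 fold changes from -1.01 to -0.43. Of the 4 known Rfx1 targets in the set, RNR2 and RNR4 rose, while RNR3 was at -0.01 and HUG1 at -0.62. RNR3 and HUG1 were among the dimmest 50% of probe sets and RNR2 and RNR4 were not, so the 2 pairs were not read equally well.

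RPA is a trimer that coats single-stranded DNA. RFA1 (YAR007C, chromosome I) encodes its large subunit, which holds most of the DNA-binding surface. Its intensities were 119.4, 149.6 and 180.8 in the wild type and 395, 398 and 630.1 in the deletion. Deletion replicate 3 stood above the other deletion arrays, and the lowest deletion array was above the highest wild-type array. The mean rose from 150 ± 30.7 to 474 ± 135 (n = 3 each), a log2 fold change of 1.65 (95% interval 1.13 to 2.16, limma adjusted p = 0.000902). Of all tested probe sets, 1.73% had a larger change in either direction, and RFA1 kept its call in all 18 other settings (1.35 to 1.79).

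RFA3 (YJL173C, chromosome X), the small subunit, had intensities of 328, 273 and 314 in the wild type and 525, 556 and 653 in the deletion. The strains did not overlap. The mean rose from 305 ± 28.6 to 578 ± 67.1 (n = 3 each), which is 0.92 on the log2 scale (SE 0.16, limma adjusted p = 0.0029).

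RFA2 (YNL312W, chromosome XIV), the middle subunit, which checkpoint kinases phosphorylate, had intensities of 397, 349 and 320 in the wild type and 392, 431 and 418 in the deletion. The lowest deletion array was below the highest wild-type array. The log2 fold change was 0.22 with a 95% interval from -0.13 to 0.57 (limma adjusted p = 0.307), so changes from 0.916-fold to 1.49-fold fit within it. On the deposited scale its sign turned (-0.06, limma adjusted p = 0.952).

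POL30 (YBR088C, chromosome II) encodes PCNA, the ring that holds polymerases on DNA. Its intensities were 123.7, 168 and 150.2 in the wild type and 238, 229 and 166 in the deletion. Deletion replicate 3 lay below wild-type replicate 2, so the strains overlapped. The log2 fold change was 0.51 (95% interval 0.07 to 0.96, limma adjusted p = 0.0752). Without deletion replicate 3 it was called (0.67, limma adjusted p = 0.0278).

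**Figure D2:**
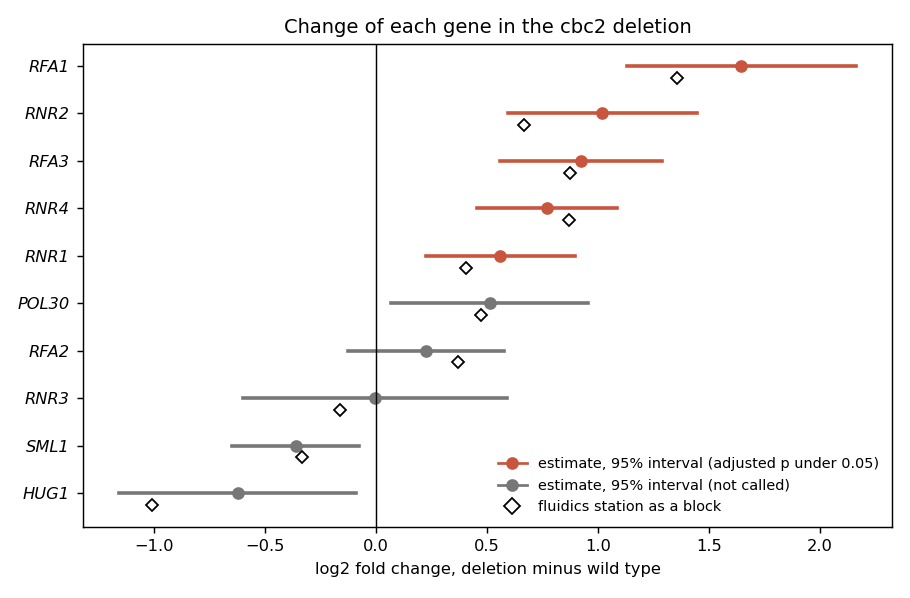
Log2 fold change of each gene, deletion minus wild type, with its 95% interval, coloured where limma's adjusted p was under 0.05, and as open diamonds the estimate with the fluidics station as a block. The 5 genes called run from 0.56 for RNR1 to 1.65 for RFA1, and the diamonds of RFA1 and RNR2 lie below their estimates, at 1.36 and 0.67.

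With the fluidics station as a block, the change rests on wild-type replicate 3 against the deletion arrays, all of one station. The 5 genes that rose kept their direction in that fit. RFA1 (1.36, limma adjusted p = 0.0355) and RNR4 (0.87, limma adjusted p = 0.0352) stayed called, 2 of 10 genes where 9.7% of all probe sets were. RFA3 (0.87, limma adjusted p = 0.0555), RNR2 (0.67, limma adjusted p = 0.101) and RNR1 (0.41, limma adjusted p = 0.234) were not called. On the deposited scale, where the median of all tested probe sets moved to -0.27, only RFA1 was called (1.35, limma adjusted p = 0.0145), 1 of 10 where 10.5% of all probe sets were. Relative to that median, RNR1 was at 0.63, RNR2 at 1.11, RNR4 at 0.98, RFA1 at 1.61 and RFA3 at 0.94. The genes not called in the main fit were at -0.07 (RNR3), 0.015 (SML1), -0.67 (HUG1), 0.21 (RFA2) and 0.46 (POL30). The fall of SML1 was thus absent there too.

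**Figure D3:**
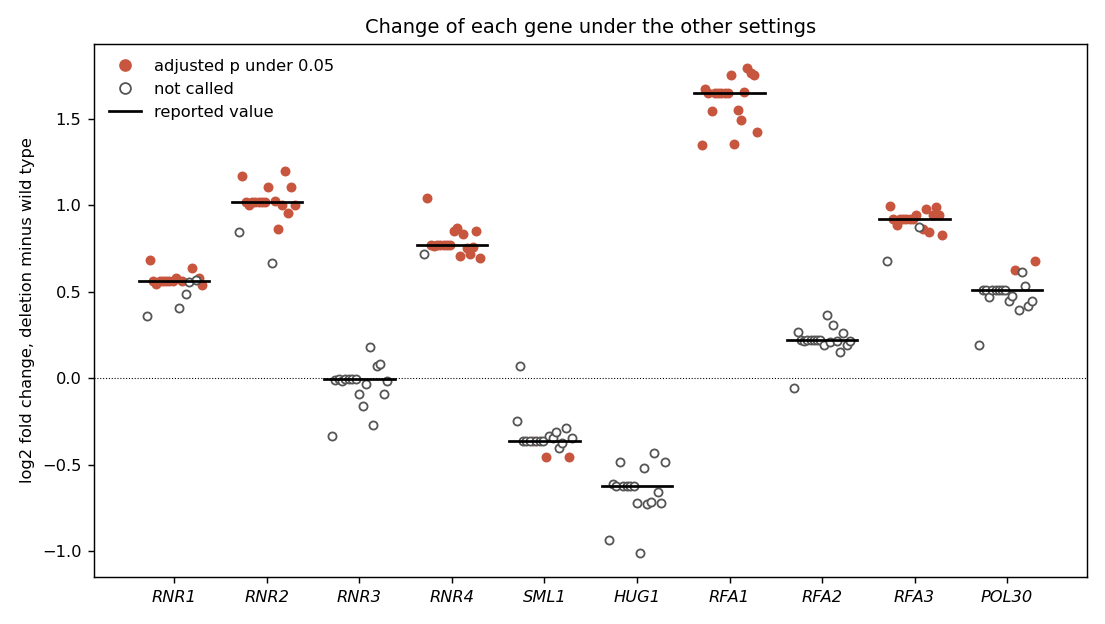
Log2 fold change of each gene, deletion minus wild type, under each of the other settings, filled where limma's adjusted p was under 0.05 and open where it was not, with the reported value as a line. RFA1 is filled throughout, HUG1, RFA2 and RNR3 are open throughout, and the points of SML1 cross 0 when the arrays are scaled to one median.

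Whether subunits of one complex changed unequally was asked with the log2 ratio of 2 genes on the same array, over 10 pairs. With 3 arrays against 3, the exact permutation test (two-sided, 20 splits) cannot go below p = 0.1, which is 0.167 after Benjamini-Hochberg adjustment over the pairs, so no pair could pass 0.05. Within RPA, the ratio of RFA1 over RFA2 was 1.42 higher in the deletion on the log2 scale, at -1.26 ± 0.45 in the wild type and 0.16 ± 0.38 in the deletion (SD, n = 3 each; exact permutation p = 0.1). The RFA1 over RFA3 ratio was higher by 0.73 and the RFA2 over RFA3 ratio was at -0.70 relative to the wild type (exact permutation p = 0.1 each, n = 3 each). In all 3 ratios the deletion arrays lay apart from the wild-type arrays. Each of these ratios follows from the other 2, so they are not 3 separate results. Of all tested genes taken singly, 49.8% also had no overlap between the strains. The share over other pairs of genes was not computed.

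Within the reductase, the RNR1 over RNR2 ratio was -0.46 relative to the wild type, without overlap (exact permutation p = 0.1, n = 3 each). The RNR2 over RNR4 and RNR1 over RNR4 ratios overlapped between the strains, with changes of 0.25 (exact permutation p = 0.5, n = 3 each) and -0.21 (exact permutation p = 0.3, n = 3 each). The ratio of RNR1 over its inhibitor gene SML1 was 0.92 higher in the deletion, without overlap (exact permutation p = 0.1, n = 3 each), and 0.61 higher on the deposited scale. The SML1 over HUG1 ratio overlapped after normalisation (change 0.26, exact permutation p = 0.5, n = 3 each). On the deposited scale its change was 0.68 and the strains did not overlap. The RNR1 over RNR3 ratio also overlapped after normalisation (0.57, exact permutation p = 0.2, n = 3 each). The RFA1 over POL30 ratio was 1.13 higher, without overlap (exact permutation p = 0.1, n = 3 each).

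**Figure D4:**
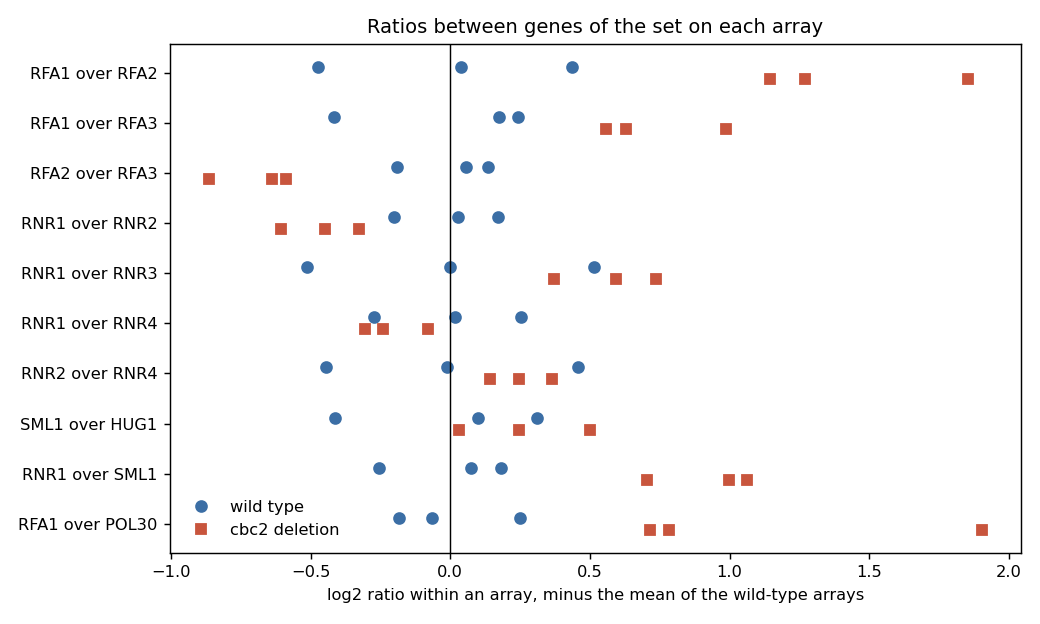
Log2 ratio of 2 genes on each array, minus the mean of the wild-type arrays, for the 10 pairs compared. The deletion arrays lie apart from the wild-type arrays for the 3 RPA ratios, RNR1 over RNR2, RNR1 over SML1 and RFA1 over POL30, and among the wild-type arrays or across them for the other pairs.

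Genes that control the reductase were a mixed group. Of 21 tested, 7 rose, 2 fell and 12 were not called (42.9% called beside 32.6% of all tested genes, median log2 change 0.21). DIF1, which carries Rnr2 and Rnr4 into the nucleus, rose from 121.1 ± 21.4 to 274 ± 34.4 (n = 3 each), by 1.18 on the log2 scale (limma adjusted p = 0.0017). DUN1, the kinase that acts on Sml1, Dif1 and Rfx1, rose by 0.97 (limma adjusted p = 0.00693). The HMG-box chromatin protein genes NHP6A and NHP6B rose by 0.87 and 0.97. Named after their values were seen, the corepressor gene TUP1 rose by 0.75 (limma adjusted p = 0.00821), while the repressor gene RFX1 was at 0.65 (limma adjusted p = 0.157) and CYC8, the other corepressor gene, at -0.09 (limma adjusted p = 0.75), neither called. No gene of this group was called with the fluidics station as a block, and 1 was on the deposited scale. Of all probe sets, 9.7% and 10.5% were called in those settings.

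Deoxynucleotide synthesis genes, together with thioredoxin and glutaredoxin genes, gave 19 tested genes. Not every glutaredoxin of this list is a known electron donor of the reductase. Of these, 7 rose, 1 fell and 11 were not called (42.1% called beside 32.6% of all tested genes, median log2 change 0.27). TRX1, a cytosolic thioredoxin and a known electron donor of the reductase, rose from 1320 ± 257 to 2454 ± 106 (n = 3 each), by 0.91 on the log2 scale (limma adjusted p = 0.00324). URA8, a CTP synthase, rose by 1.13. The paralogous monothiol glutaredoxin genes moved in opposite directions: GRX3 went from 307 ± 17.0 to 695 ± 135 (log2 fold change 1.16, limma adjusted p = 0.00151) and GRX4 from 2763 ± 97.0 to 1058 ± 243 (log2 fold change -1.41, limma adjusted p = 0.000457). The latter kept its call in all 18 other settings, while TRX1 and URA8 lost theirs on the deposited scale and with the station block, and GRX3 on the deposited scale.

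Among the genes that work with RPA and PCNA at the fork, POL1 and RFC4 had the largest rises. Of 30 tested polymerase, clamp loader and fork genes, 5 rose, 1 fell and 24 were not called. That was 20% called, beside 32.6% of all tested genes, at a median log2 change of 0.37. POL1, the catalytic subunit of polymerase alpha, rose from 108.5 ± 21.6 to 277 ± 5.29 (n = 3 each), by 1.37 on the log2 scale (limma adjusted p = 0.00077). RFC4, a subunit of the clamp loader that places PCNA, rose by 1.13 and the DNA ligase gene CDC9 by 0.75, while RAD24, which loads the checkpoint clamp, fell by 0.90 on the log2 scale. Without deletion replicate 2, 3 of these genes were called higher in place of 5. Of 25 origin and helicase genes, 3 rose, 3 fell and 19 were not called (24% called beside 32.6% of all tested genes, median 0.05). TAH11, the Cdt1 licensing factor, was at -1.48 and the GINS subunit gene PSF2 at -0.97, against ORC1 at 0.94 and ORC4 at 0.64, which was called in 8 of 17 other settings and not without any one wild-type array or deletion replicate 1 or 2. That count was 3 in place of 6 without wild-type replicate 2 and without deletion replicate 1.

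Of 24 tested repair genes whose products bind or modify RPA or PCNA, 5 rose, 4 fell and 15 were not called. The share called was 37.5%, beside 32.6% of all tested genes, at a median log2 change of 0.08. RTT107, a BRCT-domain scaffold, rose by 1.37, and RAD57, a recombinational repair gene, fell by 1.28 on the log2 scale. RAD5 and UBC13 also fell (-1.06 and -0.63). Without wild-type replicate 1 or 2, 2 genes were called higher, and without any other array 3. Leaving out the dimmest 50%, 11 of these genes were tested, 2 called higher and 5 lower, at a median of -0.46. Of all probe sets, 34.9% were called in that setting. Of 15 genes known to be induced by DNA damage, 4 rose, 2 fell and 9 were not called. The share called was 40%, beside 32.6% of all tested genes, at a median of 0.05. Besides DIF1 and DUN1, TOS4 rose by 1.72, from 21.4 ± 6.23 to 68.6 ± 9.13 (n = 3 each). Its wild-type mean lay below both strain means of TOP3, which the dim filter left out. TOS4 thus passed that filter through its deletion values. CRT10, whose product holds down RNR transcription, fell by 0.71 on the log2 scale. With the dimmest 50% left out, 8 of the damage-induced genes were tested, at a median of -0.19.

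Of 31 transcripts of the G1/S wave outside the 10 genes, 14 rose, 4 fell and 13 were not called. That was 58.1% called, at a median log2 change of 0.47. Of all tested genes, 32.6% were called, 16.3% as higher. Without wild-type replicate 2, 9 were called higher, and without any other array 10 to 12. Of all 6956 probe sets, 796 were called higher without wild-type replicate 2, and 722 to 935 without any other array. With the dimmest 50% left out, 7 of 18 tested were called higher, beside 792 of 4637 probe sets. This list shares genes with those above. POL1, RFC4, CDC9, RAD27, CDC21, CDC45, MSH6, DUN1 and TOS4, called higher here, were already counted there. TOS4, as given above, passed the dim filter through its deletion values, so its place among the 14 is no support. Without the dim filter, 11 of 33 tested transcripts were called higher and 4 lower, at a median of 0.42. In that setting 18.4% of all probe sets were called in either direction. PCL1, a G1 cyclin gene, fell from 841 ± 130 to 294 ± 25.7 (n = 3 each), a log2 fold change of -1.51 (limma adjusted p = 0.00032), and the forkhead factor gene HCM1 was at -1.47 (limma adjusted p = 0.00075). Of 12 factors that set this wave, 1 was called, STB1 (8.33%, beside 32.6% of all tested genes). STB1 fell by 0.66 on the log2 scale and lost its call in 5 of 17 other settings. Of 21 transcripts of G2/M and M/G1, none rose and 4 fell: RME1 (-0.52), DSE1 (-0.86), ASH1 (-0.47) and CDC20 (-0.50). The share called was 19%, beside 32.6% of all tested genes, at a median of -0.09. RME1, DSE1, ASH1 and CDC20 were called in 12, 13, 7 and 6 of 18 other settings. With the arrays scaled to one median, 1 gene of this list was called higher and 1 lower, at a median of -0.025. The number called lower was 0 without deletion replicate 1 and 2 without wild-type replicate 1. It was 1 without wild-type replicate 2 or 3 or deletion replicate 3, and 4 without deletion replicate 2. Of the 4 histone genes tested, HTB2 rose by 0.75 and HTZ1 by 1.32, beside 16.3% of all tested genes called higher. The rest were not called. The share of cells in S phase was not measured, and its part in the changes of the 10 genes was not tested. With the station block, 2 of the 31 G1/S transcripts were called higher and 2 lower, at a median of 0.42. Over all 10 lists, 0 to 4 genes a list were called with that block and 0 to 3 on the deposited scale. Of all probe sets, 9.7% were called with that block and 10.5% on the deposited scale.

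**Figure D5:**
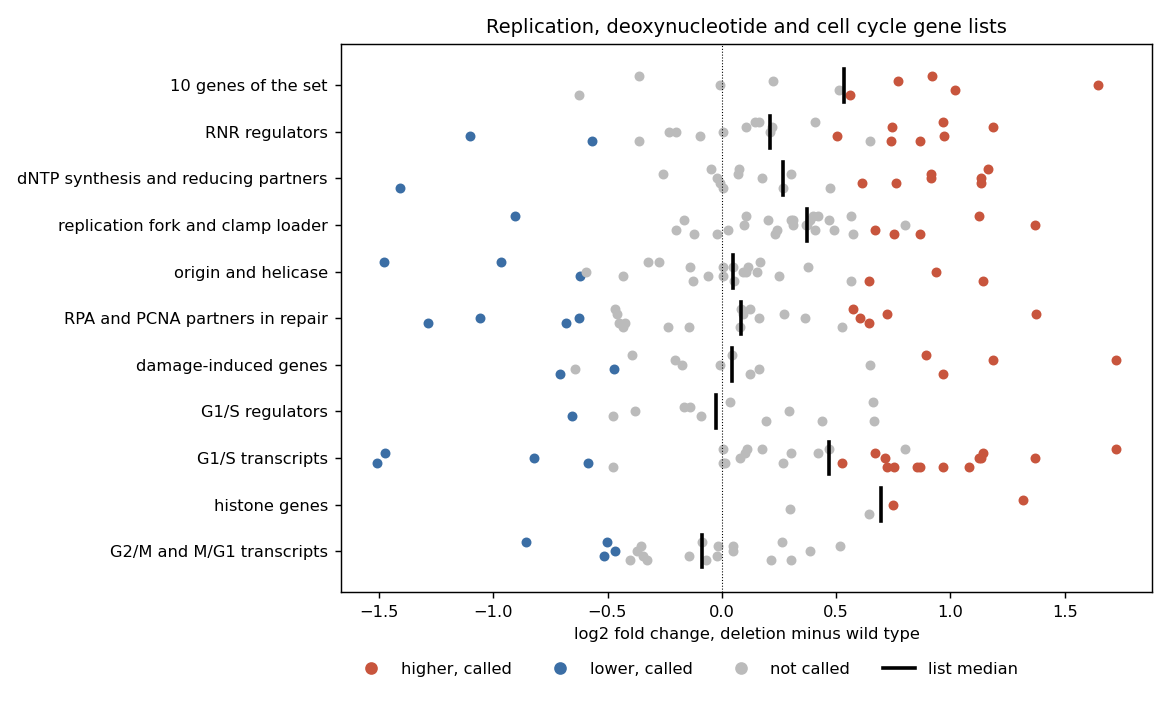
Log2 fold change, deletion minus wild type, of each tested gene in the set and in 10 lists of related genes, coloured by call, with the list median as a bar. The G1/S transcripts have 14 genes called higher and 4 lower at a median of 0.47. TOS4, among the 14, passed the dim filter through its deletion values. The G2/M and M/G1 transcripts have none higher and 4 lower at -0.09. Of all tested genes, 16.3% were called higher and 16.3% lower.

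The 5 tested genes whose centred log2 values over the 6 arrays lay closest to those of RFA1 were IMD2, COA4, FKH1, EGO4 and SNR52. Their root mean square distances were 0.155 to 0.198, where the median over all tested genes was 0.892. IMD2 (log2 fold change 1.65) was read from a probe set shared with related transcripts. COA4 rose by 1.55, FKH1 by 1.34, EGO4 by 1.78 and SNR52 by 1.44.

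The genes next to the 10 on their chromosomes were looked at for position. Of 16 tested neighbours outside the set, 3 rose, 2 fell and 11 were not called, beside 32.6% of all tested genes called. SEN34, a tRNA splicing endonuclease gene that is divergent from RFA1, rose by 1.14 (limma adjusted p = 0.0113), and SWD1, on the other side of RFA1, was at -0.87 (limma adjusted p = 0.00354). CPS1, divergent from RFA3, was at -0.99 (limma adjusted p = 0.00225), opposite to RFA3. NHP6B, next to POL30 on the same strand, rose as given above, and FIS1, next to RNR3, was at 0.80 (limma adjusted p = 0.0465). FIS1 was called in 7 of 18 other settings, and of the fits without 1 array only in that without wild-type replicate 2. SEN34 and NHP6B lost their calls on the deposited scale and with the station block, and CPS1 with the station block. SWD1 kept its call in all 18 other settings.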

How the data were processed

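The authors deposited a linear intensity for each of 9335 probe sets on each array. How they summarised the probes, and whether they scaled the arrays, is not given in the sources used. From these intensities the following was computed. Arrays were quantile normalised (trimmed means, 2% off each end, differed by 1.88-fold, over a limit of 1.2), values were raised to the 10th percentile (8.25) and log2 transformed. The 60 control probe sets and the dimmest 25% were left out, which left 6956 probe sets. The strain was tested over the 6 arrays by limma (version 3.58.1, R 4.3.3; lmFit and eBayes with trend), Benjamini-Hochberg adjusted over all tested probe sets, and called under 0.05. The number of arrays limits the precision (median SE 0.20, log2). The script was tested on simulated data. The fluidics station and scan day were read from the run files.

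A platform annotation gave 6504 probe sets 1 symbol, 328 several and 2503 none, and symbols and gene order came from a RefSeq table (R64). For a gene with several probe sets the brightest was read, those with a cross-hybridisation suffix being used only where the gene had none without. The members, lists and tests were chosen with earlier results of these data known. From each list, called genes were named up to 4 of smallest p. Genes of a list without a probe set of their own are not analysed here. Replicate numbers did not pair the arrays: same-numbered arrays deviated from their strain means with correlations of -0.23, -0.09 and 0.08. Alternatives were the scaling, floor, pseudocount, dim filter, variance model, blocks, array weights and each array left out.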

Additional observations from a re-analysis of the deposited data

How the results depend on the processing

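Of all probe sets, 2187 were called, against 728 on the deposited scale (165 higher, 563 lower) and 675 with the fluidics station as a block, and 1492 to 1967 with 1 array left out. Of the 10 genes, 5 were called, against 1 and 2 in those settings and 4 to 6 with 1 array left out. With the arrays scaled to one median, 1258 probe sets were called higher and 966 lower. The signs of RNR3 (-0.27 to 0.18 with 1 array left out), SML1 (0.072, scaled to one median), RFA2 (-0.057, deposited scale) and CYC8 (0.037 with the station block, 0.0022 with array weights, -0.24 to 0.093 with 1 array left out) turned, none of them called there. The causes were not tested. The replicate number as a block gave 1911 probe sets and 5 of the 10 genes, and changed no call among the 10; only wild-type replicate 3 correlated best with its own number. The scan day as a block, where deletion replicate 2 has a day of its own, gave 1861 probe sets, and leaving that array out 1862. Other probe sets of the 10 genes could not be tried, as each has 1. The settings for the lists and the other named genes were chosen after seeing the data. Of 42 other named genes called, 27 lost the call on the deposited scale, 26 with the station block and 4 when scaled to one median, and none of the 42 changed sign there. With 3 arrays a strain, the 95% intervals of the genes not called ran from -0.65 to -0.08 for SML1, the narrowest of the 10, to -0.60 to 0.59 for RNR3, the widest.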

Other observations

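POL30 encodes PCNA, which is ubiquitinated at stalled forks, first by Rad6 with Rad18 and then, as a chain, by Ubc13 and Mms2 with Rad5. The transcripts of the chain-forming enzymes fell in the deletion strain while POL30 was at 0.51 and not called. RAD5 fell from 246 ± 17.4 to 121.1 ± 31.6 (n = 3 each), a log2 fold change of -1.06 (limma adjusted p = 0.00525), UBC13 from 2875 ± 226 to 1864 ± 153 (-0.63, limma adjusted p = 0.00741) and MMS2 from 1179 ± 81.1 to 737 ± 94.7 (-0.68, limma adjusted p = 0.00937). RAD6 (-0.46, limma adjusted p = 0.086) and RAD18 (-0.43, limma adjusted p = 0.0836) were not called. This grouping, with MMS2, RAD6 and RAD18, was made after the values were seen. The call of RAD5 was lost with the fluidics station as a block, that of MMS2 there and on the deposited scale, and that of UBC13 on the deposited scale and after median scaling. The sign of all 5 genes held in every setting tried.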
